A study of Mus musculus with 16 samples.

Results

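The genes described are 28 genes of cholesterol synthesis and sterol control in differentiated mouse brown adipocytes. They are rows of a count table of 54347 genes and were chosen by symbol from a list of enzymes of the pathway, genes that sense sterol and genes that move or store it. Each of the 28 had a row and passed the filter on low counts, as did 13150 genes in all. The list rests on what the genes are known to do, since binding of SREBP2 was not measured. The cells were wt1-SAM, an immortalized brown preadipocyte line of mouse that stably carries CRISPRa SAM, a dead Cas9 system with activator proteins that raises transcription where a guide RNA directs it. All libraries came from this 1 line, and whether it was grown from a single clone was not stated in the sources used here.

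Every group was differentiated with the same agents (rosiglitazone, T3, dexamethasone, insulin, indomethacine and IBMX, later rosiglitazone and insulin, then rosiglitazone) and received 250 ng of plasmid by reverse transfection on day 4. The empty vector groups received the sgRNA vector with no guide, and the sgRNA groups received a pair of plasmids with guides against *Gm15551*, a long noncoding RNA gene. Under each plasmid, cells were left as controls or were given 1 µM isoproterenol, an agonist of β-adrenergic receptors, for 24 h, and all were harvested on day 7. The 4 groups are called empty vector control, empty vector stimulated, sgRNA control and sgRNA stimulated. Each held 4 libraries of polyadenylated RNA, numbered replicates 3, 4, 5 and 6, which made 16 libraries and 8 pairs of a stimulated and a control library with the same plasmid and number. The labels did not say whether replicates were separate cultures, so p-values measure the spread between these samples, which may be technical.

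Cholesterol is built from acetyl-CoA through mevalonate, isoprenyl units, squalene and lanosterol, and a row of enzymes then trims lanosterol to the sterol end product. SREBP2, the transcription factor encoded by *Srebf2*, switches on most genes of this path. It is held in the endoplasmic reticulum by SCAP and the INSIG proteins while sterol is plentiful, and it is released and cut when sterol runs low. Brown adipocytes answer β-adrenergic agonists by breaking down stored triglyceride and by raising genes of heat production such as *Ucp1*.

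Libraries held 9053521 to 16546187 counts, of which 1 ribosomal RNA gene took 11.7 to 51.8%. The 28 genes together held 16204 to 44195 counts per library, or 0.247 to 0.457% of the counts outside the ribosomal RNA gene. That share was 0.374 ± 0.0283% in empty vector controls and 0.294 ± 0.0455% in empty vector stimulated cells (SD, n = 4), and 0.411 ± 0.0365% and 0.315 ± 0.0458% in the matching sgRNA groups. With isoproterenol the log2 level of *Ucp1* rose by 4.03, with an SE of 0.37 and an adjusted p of 7.36e-06 by edgeR's quasi-likelihood test. The rise started near the floor, from 0 to 0.979 CPM (a count rate, defined below) in control libraries to 4.37 to 15.5 CPM in stimulated ones. *Gm15551* had 3 to 18 counts per library in empty vector controls, 0 to 5 in empty vector stimulated cells, 19 to 56 in sgRNA controls and 13 to 26 in sgRNA stimulated cells. Its averaged sgRNA effect of 2.37 (log2, SE 0.39) had an adjusted p of 0.0989, which became 0.00055 once replicate number was fitted as a block.

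The first question was what isoproterenol did to these genes, averaged over both plasmids. *Insig1*, which encodes an anchor of the SREBP complex, fell to 52.5% of its control level, and the synthesis enzymes *Acat2*, *Mvd*, *Dhcr7* and *Nsdhl* fell to between 58.3 and 63.9%. No member was called higher in this fit or with the block. Of the rest, *Cyp51* stood at 66.7% of its control level and was called or not depending on the fit, while *Hmgcs1*, *Idi1*, *Sqle*, *Lss*, *Srebf2*, *Scap* and *Insig2* had estimates within 0.12 of 0 on the log2 scale. A gene was called when its Benjamini-Hochberg adjusted p over the 13150 genes was under 0.05 and its log2 fold change was beyond 0.5 in either direction. By this rule 5 of 28 members were lower and 0 higher, against 1.32% of all genes called lower and 1.33% called higher, or 2.65% in either direction. With the replicate block 6 were lower and 0 higher, against 2.61% and 3.09%, or 5.7% in either direction. On the adjusted p alone, with no bound on the fold, 7 members were lower, against 2.43% of all genes, and with the block 11 were lower and 1 higher, against 10.4% and 10.9%. An unadjusted p under 0.05 was reached by 12 members, against 17.7% of all genes, and with the block by 14, against 33.5%. The estimate was below 0 for 21 of the 28, against 6450 of the 13150 genes. The median of all 28 members was -0.11, beside 0.00 for all genes. Lower in 8 of 8 pairs were 11 members, against 7.67% of all genes, and higher in 8 of 8 pairs was 1, against 8.16%.

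**Figure D1:**
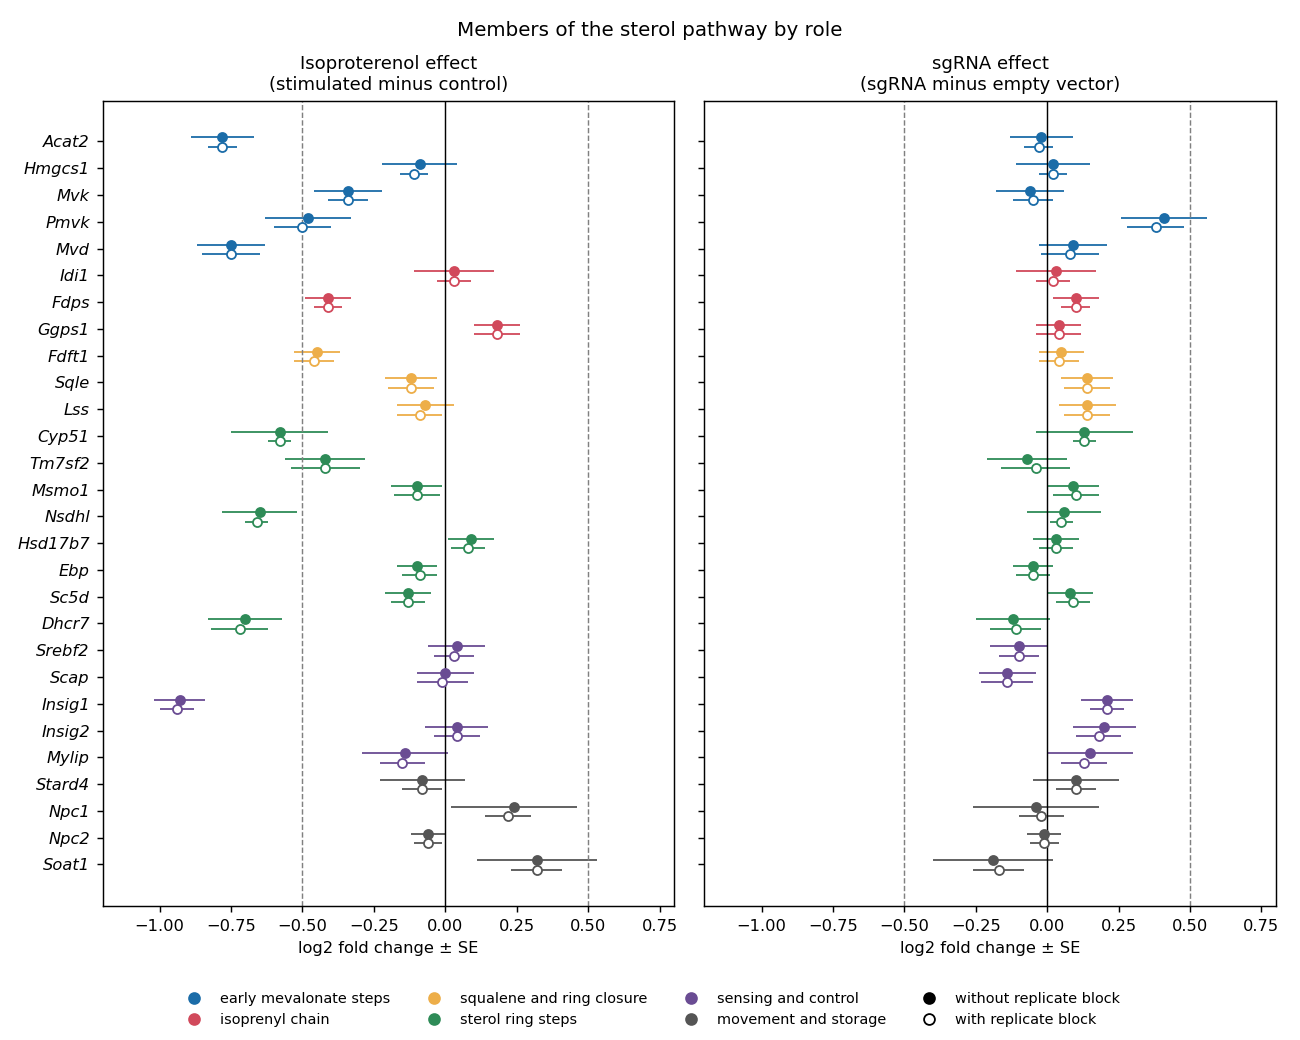
Isoproterenol effect averaged over plasmids (left) and sgRNA effect averaged over treatments (right) for each of the 28 genes, in the order of their roles. Values are log2 fold change ± SE (n = 16 libraries) without and with the replicate block, and dashed lines mark 0.5 in either direction. On the left *Insig1* lies farthest from 0 at -0.93, *Acat2*, *Mvd*, *Dhcr7* and *Nsdhl* between -0.78 and -0.65, and the SREBP genes *Srebf2* and *Scap* near 0.

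The bases before the start sites of 6 members are shown, because SREBP2 acts at such sites beside NF-Y, a factor that binds CCAAT. *Insig1*, *Acat2*, *Nsdhl* and *Cyp51* fell in at least 1 of the fits, and *Hmgcs1* and *Idi1* had estimates near 0. The sequences are from RefSeq on GRCm38.p6, 250 bases that end just before the RefSeq start of transcription, read 5′ to 3′ on the strand of the gene. The gene coordinates given elsewhere come from GENCODE and can start at another base. By GENCODE the windows of *Insig1*, *Acat2*, *Cyp51* and *Idi1* run into the gene, so some capitals lie inside it, and those of *Nsdhl* and *Hmgcs1* end before it. The windows are *Insig1* chr5:28071162-28071411 (plus strand), *Acat2* chr17:12960726-12960975 (minus), *Nsdhl* chrX:72918271-72918520 (plus), *Cyp51* chr5:4104698-4104947 (minus), *Hmgcs1* chr13:119690101-119690350 (plus) and *Idi1* chr13:8885356-8885605 (plus). Capitals mark CCAAT or its reverse ATTGG, the E-box CACGTG, and the sterol element core TCACNCCAC.
Insig1: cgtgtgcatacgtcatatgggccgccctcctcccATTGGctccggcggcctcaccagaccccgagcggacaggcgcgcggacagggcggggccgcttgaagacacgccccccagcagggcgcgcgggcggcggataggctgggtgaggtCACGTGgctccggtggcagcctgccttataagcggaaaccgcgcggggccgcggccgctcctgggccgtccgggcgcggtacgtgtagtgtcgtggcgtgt
Acat2: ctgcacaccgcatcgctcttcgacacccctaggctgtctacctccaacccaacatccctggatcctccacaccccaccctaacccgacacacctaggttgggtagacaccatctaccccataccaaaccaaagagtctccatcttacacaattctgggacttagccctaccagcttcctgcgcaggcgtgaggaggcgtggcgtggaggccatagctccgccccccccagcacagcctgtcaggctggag
Nsdhl: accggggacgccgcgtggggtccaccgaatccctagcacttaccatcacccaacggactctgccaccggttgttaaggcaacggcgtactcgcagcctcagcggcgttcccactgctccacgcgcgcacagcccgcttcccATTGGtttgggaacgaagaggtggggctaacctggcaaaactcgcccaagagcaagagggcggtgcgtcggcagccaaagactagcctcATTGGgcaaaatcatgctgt
Cyp51: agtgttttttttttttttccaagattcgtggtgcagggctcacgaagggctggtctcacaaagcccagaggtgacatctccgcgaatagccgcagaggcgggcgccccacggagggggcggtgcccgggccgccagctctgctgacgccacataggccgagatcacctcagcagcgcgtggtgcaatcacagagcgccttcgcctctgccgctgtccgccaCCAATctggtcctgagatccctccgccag
Hmgcs1: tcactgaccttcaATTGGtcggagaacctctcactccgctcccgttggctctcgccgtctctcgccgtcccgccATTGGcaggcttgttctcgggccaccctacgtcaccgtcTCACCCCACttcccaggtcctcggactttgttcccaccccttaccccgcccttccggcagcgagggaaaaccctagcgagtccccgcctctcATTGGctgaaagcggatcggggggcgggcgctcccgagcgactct
Idi1: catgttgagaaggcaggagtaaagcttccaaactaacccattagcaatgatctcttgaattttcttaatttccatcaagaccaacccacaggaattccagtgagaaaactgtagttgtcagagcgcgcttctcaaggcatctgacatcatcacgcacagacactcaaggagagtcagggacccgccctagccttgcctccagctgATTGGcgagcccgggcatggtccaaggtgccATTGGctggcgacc

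The letters were searched on both strands; CACGTG reads the same on either, and none of the 3 motifs contains another. The RefSeq table held at least 1 window for 23 of the 28 members, and *Fdps*, *Fdft1*, *Sqle*, *Stard4* and *Npc1* were not matched. Counted per gene, CCAAT was present in a window of 21 of the 23 (91.3%), against 37.5% of the 27025 genes of the table and 41.6% of the 9405 tested genes in it. *Dhcr7* had 2 windows, of which 1 held CCAAT and the other the E-box. Its 2 exceptions were *Acat2* and *Scap*. The E-box was in 5 of 23 (21.7%; *Insig1*, *Dhcr7*, *Sc5d*, *Hsd17b7* and *Scap*), against 6.86% of genes and 9.98% of tested genes, and the sterol core was in 1 (4.35%), against 1.22% and 1.14%. Per window the shares over all 32851 windows were 33.8, 6.02 and 1.05% for CCAAT, the E-box and the sterol core. In the printed windows *Insig1* had its CCAAT box at -216 and its E-box at -101 from the RefSeq start, *Nsdhl* had boxes at -109 and -20, and *Cyp51* at -29. *Hmgcs1*, with an isoproterenol estimate of -0.09, had the sterol core at -137 and CCAAT at -237, -176 and -45, *Idi1* had CCAAT at -45 and -14, and *Acat2*, which fell, had none of the motifs. So genes that fell and genes with estimates near 0 both held CCAAT boxes, and these matches are a description of letters in short windows. Each motif was searched as a fixed string, so sites with other letters were not counted, and a window without the sterol core may still hold a sterol element.

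Among the genes of sensing and control 1 of 5 was called, against 1.32% of all genes called lower, or 2.61% with the block. *Insig1* (ENSMUSG00000045294, GRCm38 chr5:28071363-28078662, plus strand) is itself a known target of SREBP2. In replicates 3, 4, 5 and 6 it stood at 451, 450, 407 and 397 CPM (the usual count rate per library, here on TMM-scaled library sizes) in empty vector controls and at 220, 203, 264 and 207 CPM after isoproterenol. In sgRNA cells it stood at 542, 464, 533 and 433 CPM in controls and at 268, 237, 307 and 225 CPM after isoproterenol. The lowest control library, at 397 CPM, lay above the highest stimulated one, at 307 CPM, so the groups did not overlap. Within pairs the stimulated level was 45.1 to 64.8% of the control. The averaged effect was -0.93 (log2, SE 0.09, adjusted p = 7.36e-06), and with the replicate block -0.94 (SE 0.06, adjusted p = 1.74e-08). It was called in each of 20 fits that left out 1 library or 1 replicate number, with values between -1.01 and -0.89.

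The other genes of this role had averaged effects between -0.14 and 0.04, and none passed the test. *Srebf2*, which encodes SREBP2, ranged from 69.9 to 89 CPM in control libraries and from 58.7 to 95.7 CPM in stimulated ones, and its effect was 0.04 (SE 0.10, 95% interval -0.18 to 0.27). *Scap*, the escort of SREBP2 and its sensor of sterol, ranged from 30.1 to 42.8 CPM in controls and from 29.9 to 54.5 CPM after isoproterenol (95% interval of the log2 effect -0.23 to 0.22). The groups overlapped in both genes, with stimulated libraries below the lowest and above the highest control. *Insig2*, the sister anchor of *Insig1*, was at 44.9 to 74.5 CPM in controls and 44.2 to 72.7 CPM after isoproterenol, with an effect of 0.04 (95% interval -0.19 to 0.27). The interval of *Insig2* did not reach the fall of *Insig1*. *Mylip*, a ubiquitin ligase that limits uptake of lipoprotein, had an estimate of -0.14 (SE 0.15, adjusted p = 0.7).

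Among the 5 early mevalonate enzymes, 2 were called lower in either fit, against 1.32% of all genes, or 2.61% with the block. In all 8 pairs 4 of the 5 were lower, against 7.67% of all genes. *Acat2* (ENSMUSG00000023832, chr17:12942890-12960747, minus strand) encodes the cytosolic thiolase that joins acetyl-CoA units at the head of the path. Its levels in replicates 3 to 6 were 187, 163, 218 and 165 CPM in empty vector controls and 95.1, 92, 129 and 102 CPM after isoproterenol. In sgRNA cells they were 168, 134, 222 and 181 CPM, and 103, 88.8, 129 and 99.1 CPM after isoproterenol. All control libraries lay above all stimulated ones, the nearest being 134 and 129 CPM, and within a pair the level fell to between 50.9 and 66.4%. The averaged effect was -0.78 (SE 0.11, adjusted p = 0.000852), with the block -0.78 (SE 0.05, adjusted p = 2.19e-08), and it was called in 20 of 20 leave-out fits. *Acat2* shares 1477 bases at 97.7% identity with *Acat3*, between which salmon may split reads. *Acat3* had 5 to 25 counts per library beside 738 to 3104 for *Acat2*, and the sum of both genes gave -0.78 with an adjusted p of 0.000835. *Acat2* also shares 445 bases at 98.7% identity with *Tcp1*, a chaperonin subunit with 2731 to 8721 counts per library. *Tcp1* was higher in 8 of 8 pairs by 0.15 (SE 0.09, adjusted p = 0.403; with the block 0.14, adjusted p = 0.042, within the bound), and reads split between it and *Acat2* were not tested for.

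*Mvd* (ENSMUSG00000006517, chr8:122433601-122443422, minus strand) encodes the decarboxylase that makes isopentenyl diphosphate. Its control levels in replicates 3 to 6 were 28.3, 31.2, 18.3 and 20.9 CPM with the empty vector and 27.7, 29.6, 26.6 and 23.9 CPM with the guides. After isoproterenol they were 11.6, 16.9, 18.1 and 13.6 CPM, and 16.3, 14.9, 17.6 and 13.8 CPM. Groups did not overlap but nearly touched, and replicate 5 of the empty vector moved only from 18.3 to 18.1 CPM, or to 98.7% of its control, where the lowest pair was at 40.9%. The averaged effect was -0.75 (SE 0.12, adjusted p = 0.00152; with the block adjusted p = 5.31e-05). Without replicate 3 it was -0.67 with an adjusted p of 0.0502.

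The kinases between them, *Mvk* and *Pmvk*, add phosphate to mevalonate and its first product. *Mvk* was lower in 8 of 8 pairs by -0.34 (SE 0.12, adjusted p = 0.145), and *Pmvk* likewise by -0.48 (SE 0.15, adjusted p = 0.0908). With the block the adjusted p of *Mvk* was 0.00325 and that of *Pmvk* 0.00191, at a log2 value of -0.34 and -0.50, so neither was beyond the bound of 0.5. *Pmvk* was called with no filter on low counts (-0.51, adjusted p = 0.0335), without replicate 5 of the sgRNA stimulated cells (-0.58, adjusted p = 0.0353), and with the block without replicate 4 or 5 (-0.53 in both). *Hmgcs1*, which makes HMG-CoA and is a textbook SREBP target, stood apart from its neighbours in the path. Its control libraries spanned 298 to 416 CPM and its stimulated ones 247 to 453 CPM, with an effect of -0.09 (SE 0.13, 95% interval -0.38 to 0.20). Within pairs its level was 80.5 to 109% of the control.

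None of the 3 isoprenyl chain genes was called. *Fdps*, which makes farnesyl diphosphate, was at 152 to 207 CPM in controls and 111 to 157 CPM after isoproterenol, lower in 8 of 8 pairs. Its effect of -0.41 (SE 0.08) had an adjusted p of 0.00755 and lay within the bound. *Idi1*, the isomerase of the isoprenyl units, had an estimate of 0.03 (SE 0.14, 95% interval -0.26 to 0.33) and was lower in 4 of 8 pairs. *Ggps1*, on the branch to geranylgeranyl groups, was higher in 7 of 8 pairs by 0.18 (SE 0.08, adjusted p = 0.253).

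Of the genes of squalene and ring closure, *Fdft1* alone passed on p, again within the bound. This gene encodes squalene synthase, the first step committed to sterol. Its control libraries spanned 47.9 to 63.4 CPM and its stimulated ones 35.9 to 46.9 CPM, with no overlap, and its effect was -0.45 (SE 0.08, adjusted p = 0.00515). It passed the bound without replicate 5 (-0.52, adjusted p = 0.0122; with the block 0.000512) and, with the block, without replicate 3 (-0.50, adjusted p = 0.0013). *Sqle*, squalene epoxidase, had an estimate of -0.12 (SE 0.09, adjusted p = 0.526, 95% interval -0.31 to 0.07), and *Lss*, which closes the ring to lanosterol, -0.07 (SE 0.10, adjusted p = 0.791). *Fdft1* shares 774 bases of exon with *Ctsb*, whose own estimate was -0.03.

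Of the 8 enzymes that work on the sterol ring, 2 were called lower, against 1.32% of all genes, and 3 with the block, against 2.61%. *Dhcr7* (ENSMUSG00000058454, chr7:143823145-143848410, plus strand) encodes the reductase at the end of the path. In replicates 3 to 6 its controls stood at 46.9, 60, 57.1 and 44.1 CPM with the empty vector and at 50.9, 49.6, 50.6 and 42.9 CPM with the guides. The stimulated libraries stood at 25.9, 27.7, 47.3 and 28.7 CPM, and at 31.2, 22.7, 37.1 and 27.4 CPM. The groups overlapped through replicate 5 of the empty vector stimulated cells, at 47.3 CPM, while the other stimulated libraries were all below every control. The effect was -0.70 (SE 0.13, adjusted p = 0.00486; with the block adjusted p = 5.7e-05), and leaving out replicate 3 or replicate 4 gave an adjusted p of 0.0814 or 0.101.

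*Nsdhl* (ENSMUSG00000031349, chrX:72918557-72958514, plus strand) encodes the dehydrogenase that helps strip methyl groups from the ring. Its controls stood at 43.3, 48, 62.8 and 53.1 CPM with the empty vector and at 44.8, 46.3, 66.8 and 59.5 CPM with the guides. The stimulated libraries stood at 26.3, 29.8, 42.4 and 34.6 CPM, and at 26.7, 29.1, 45.4 and 36.6 CPM. Replicate 5 was the highest in each group, so that its stimulated libraries met the lowest controls, yet the pairs were alike, at 59.7 to 67.9% of the control. The effect was -0.65 (SE 0.13, adjusted p = 0.0103), and with the block -0.66 (SE 0.04, adjusted p = 5.64e-08). Without replicate 3, 4 or 6 the adjusted p was 0.0618, 0.0931 or 0.0662.

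*Cyp51* (ENSMUSG00000001467, chr5:4081145-4104746, minus strand), the lanosterol demethylase, had the same form on a larger scale. Its controls stood at 350, 299, 518 and 457 CPM with the empty vector and at 375, 307, 591 and 494 CPM with the guides. The stimulated libraries stood at 240, 200, 356 and 280 CPM, and at 250, 231, 408 and 300 CPM. Each pair fell, to 60.6 to 75.3% of its control, while the groups overlapped, and 53.3% of its variance in log2 CPM went with replicate number, beside 43.3% with isoproterenol. Without the block the effect was -0.58 (SE 0.17, adjusted p = 0.0662), and with it -0.58 (SE 0.04, adjusted p = 2.14e-07). Without the block it was also called by DESeq2 (adjusted p = 0.0162), with no filter on low counts (0.00904), with ribosomal RNA content as covariate (-0.69, adjusted p = 0.0088), without replicate 5 (0.0417), and without replicate 5 of either stimulated group (0.0314 and 0.0319) or replicate 4 of the sgRNA controls (0.0407). Exons of *Cyp51* overlap those of *Akap9* on the opposite strand by 166 bases, and *Akap9* had an estimate of 0.05.

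The remaining ring enzymes were not called in either fit over all libraries. *Tm7sf2*, a sterol reductase, was lower in 8 of 8 pairs by -0.42 (SE 0.14, adjusted p = 0.114; with the block 0.018), though called without replicate 5 of the empty vector stimulated cells (-0.52, adjusted p = 0.0277), and it shares 532 bases of exon with *Vps51*, whose estimate was -0.19. *Msmo1*, which oxidizes the methyl groups that *Nsdhl* then helps remove, had -0.10 (SE 0.09, adjusted p = 0.641). *Ebp*, the isomerase, had -0.10 (adjusted p = 0.537), *Sc5d*, the desaturase, -0.13 (adjusted p = 0.425), and *Hsd17b7*, the ketone reductase, 0.09 (adjusted p = 0.602). *Dhcr7* and *Msmo1* also carry stretches of at least 200 bases that are near-identical in 22 and 10 other genes, between which reads may be split. Shared exon bases or near-identical stretches were also found for *Hmgcs1*, *Idi1*, *Fdps*, *Ggps1*, *Lss*, *Scap* and *Npc1*. *Fdps* shares 1124 bases of exon on the same strand with *Gm43738*, and *Idi1* 684 bases at 100% identity with the pseudogene *Gm13502*. Splits of reads between these genes were not tested for.

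Genes that move or store sterol were not called in either direction. *Soat1*, which esterifies cholesterol for storage in lipid droplets, was higher in 8 of 8 pairs. Its controls stood at 10.8, 13.1, 8.31 and 17.9 CPM with the empty vector and at 11.1, 13.7, 8.01 and 16 CPM with the guides. After isoproterenol the levels were 21.3, 18.1, 8.52 and 21.4 CPM, and 12.9, 14.7, 9.77 and 17.4 CPM. The increase was uneven, from 103 to 196% of the control within a pair, and the estimate was 0.32 (SE 0.21, adjusted p = 0.467; with the block 0.0149, within the bound). *Npc1* and *Npc2*, which pass cholesterol out of lysosomes, had estimates of 0.24 (SE 0.22, adjusted p = 0.633) and -0.06 (SE 0.06, adjusted p = 0.657). *Stard4*, a carrier of sterol between membranes, had -0.08 (SE 0.15, adjusted p = 0.838).

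**Figure D2:**
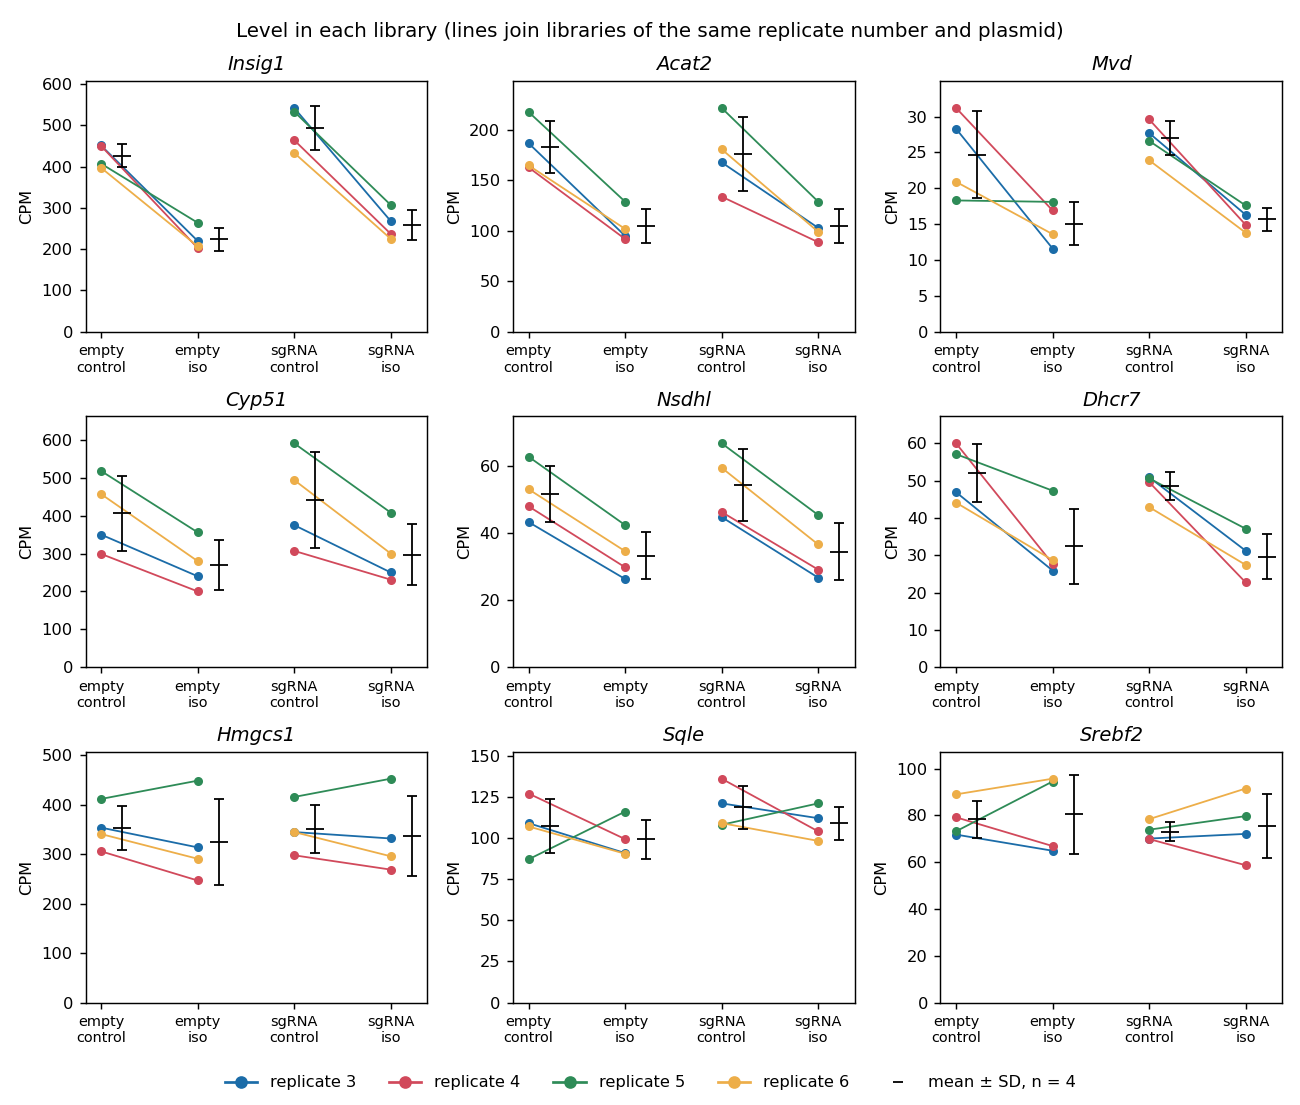
Level of 9 of the genes in each library (CPM, linear axes) in the 4 groups; thin lines join libraries of the same plasmid and replicate number, and bars give the mean ± SD (n = 4). *Insig1*, *Acat2*, *Mvd*, *Cyp51*, *Nsdhl* and *Dhcr7* drop in every pair, with *Cyp51* highest in replicate 5 of each group, while *Srebf2* stays between 58.7 and 95.7 CPM.

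Per kilobase of exon, *Insig1* had the highest level of the members in all 4 groups, and *Cyp51* and *Hmgcs1* traded ranks 2 and 3. Lengths were unions of annotated exons, so a gene with long rare exons is placed too low. In empty vector controls *Insig1* led with 138 ± 9.15 CPM per kb (SD, n = 4), followed by *Cyp51* with 92 ± 22.5, *Hmgcs1* with 76.9 ± 9.6 and *Acat2* with 72 ± 10.1. The lowest *Insig1* library, at 128, was above the highest *Cyp51* library, at 117, whereas the ranges of *Cyp51*, *Hmgcs1* and *Acat2* overlapped. In empty vector stimulated cells *Insig1* was at 72.3 ± 9.04 and *Hmgcs1* at 70.8 ± 19, with overlapping ranges, then *Cyp51* at 60.9 ± 15.1 and *Acat2* at 41.1 ± 6.62. *Hmgcs1* thus had rank 3 in both control groups and rank 2 in both stimulated groups, though its range overlapped that of *Cyp51* in each of the 4 groups. *Fdps* had rank 5 in all 4 groups, and *Soat1*, with 1.28 CPM per kb in empty vector controls, was at the low end.

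Markers of cell types were read beside these falls. Over all genes 1.32% were called lower after isoproterenol and 1.33% higher, or 2.61% and 3.09% with the block. All 8 adipocyte markers were tested and 4 were called lower after isoproterenol (*Adipoq* by -1.06, *Lipe* by -0.69, *Pnpla2* by -0.67 and *Cidec* by -0.54), while *Pparg* had an estimate of -0.06. With the block 5 were called lower, which added *Plin1* (-0.57, adjusted p = 0.000217; without it adjusted p = 0.114). Their summed level was 16800 to 27600 CPM in empty vector controls, 12800 to 22300 in empty vector stimulated cells, 20400 to 26000 in sgRNA controls and 13700 to 23900 in sgRNA stimulated cells. Of 6 brown adipocyte markers 5 were tested and 2 rose (*Ucp1*, and *Ppargc1a* by 0.71), with sums of 195 to 405, 250 to 457, 225 to 423 and 331 to 567 CPM in the same order. With the block 3 rose, which added *Cidea* (1.20, adjusted p = 0.000746; without it 1.19, adjusted p = 0.155). In bulk RNA, fewer cells of a type and less RNA per cell cannot be told apart, and the part of these markers in the falls was not tested. Markers of other cell types were low. The 8 preadipocyte or fibroblast markers summed to 28.3 to 145 CPM over the libraries, with 0 of 4 tested called; with the block *Ly6a* was called higher (1.09, SE 0.11, adjusted p = 4.92e-06, higher in 8 of 8 pairs; without it 0.99, adjusted p = 0.34). Of 6 macrophage markers only *Cd68* was tested and it rose by 0.91, with sums of 8.31 to 14.5, 14.5 to 23, 6.59 to 13.8 and 13.9 to 22.5 CPM. The 5 endothelial markers summed to 1.42 to 3.15 CPM, with *Emcn* at 0 in all libraries. The 4 hepatocyte markers summed to 0.129 to 1.69 CPM, and the 1 tested, *Apoa1*, fell.

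The isoproterenol effect was then read under each plasmid. In empty vector cells *Insig1* fell by 0.93 (log2, SE 0.12, adjusted p = 0.000798) and *Acat2* by 0.81 (SE 0.16, adjusted p = 0.0237). These were 2 of 28 members called lower, against 0.373% of all genes. With the block 6 were called lower, against 2.15%, the added genes being *Mvd* (adjusted p = 0.00387), *Dhcr7* (0.00298), *Nsdhl* (8.21e-06) and *Cyp51* (1.87e-05). In sgRNA cells *Insig1* fell by 0.93 (SE 0.12, adjusted p = 0.000903), *Mvd* by 0.78 (SE 0.17, adjusted p = 0.0409) and *Acat2* by 0.75 (SE 0.16, adjusted p = 0.0458). These 3 compare with 0.297% of all genes, and with the block 7 were called, against 1.83%, which added *Fdft1* (adjusted p = 0.00306), *Cyp51*, *Nsdhl* and *Dhcr7*. The calls of *Acat2* and *Mvd* within 1 plasmid were close to the threshold, and the counts without the block fell to 0 in empty vector cells without replicate 4 and to 1 in sgRNA cells without replicate 3, 4 or 6.

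The difference between the plasmids was tested as an interaction. None of the 28 members was called, and 0 had an unadjusted p under 0.05 in edgeR with or without the block; DESeq2 also called 0. Among all genes 0 were called (0%), and 0.395% had an unadjusted p under 0.05, or 1.51% with the block. Estimates ran from -0.31 for *Soat1* (SE 0.41) to 0.08 for *Sc5d*. For *Insig1* the difference was 0.01 (SE 0.17, 95% interval -0.37 to 0.38), for *Acat2* 0.06 (SE 0.23, -0.43 to 0.56) and for *Mvd* -0.07 (-0.58 to 0.45). These intervals come from the fit without the block, in which differences of about their size could not be seen with 4 libraries in a group. With the block the SE of the *Acat2* isoproterenol effect was 0.07 under each plasmid, beside 0.16 without it. Intervals of the interaction with the block are not given here.

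**Figure D3:**
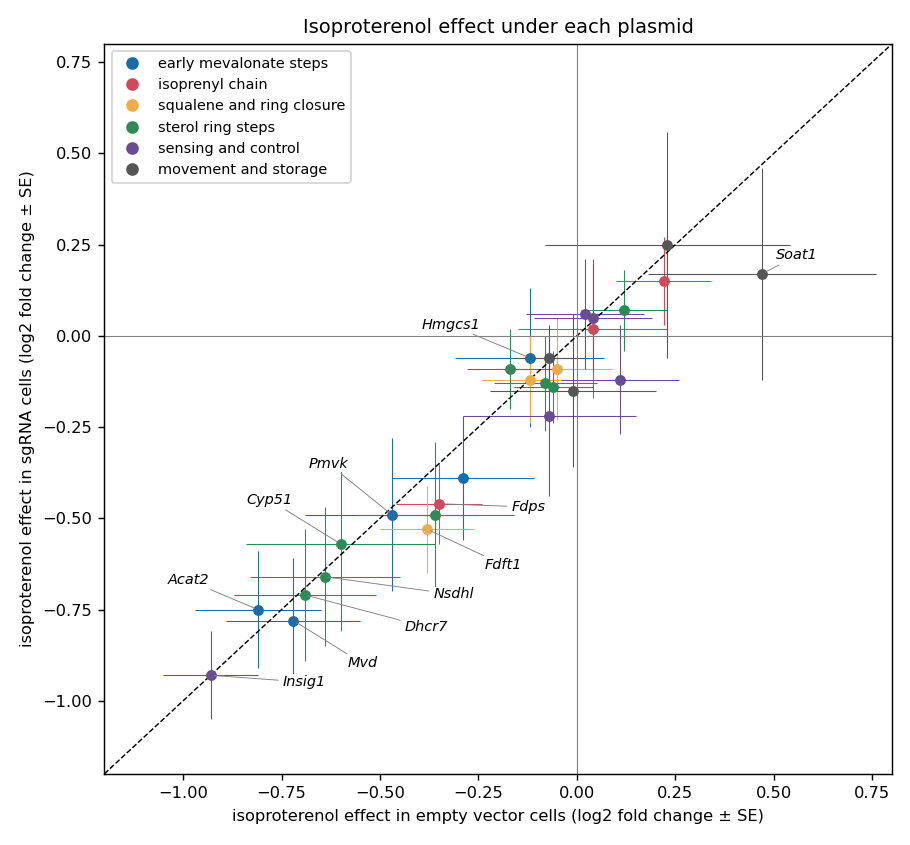
Isoproterenol effect on the 28 genes in empty vector cells (x axis) and in sgRNA cells (y axis), as log2 fold change ± SE from the fit without the block (n = 4 libraries per group); the dashed line marks equal effects and colours mark roles. *Insig1* lies at -0.93 on both axes, and *Soat1* lies farthest from the line.

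The second question was what the guides against *Gm15551* did to these genes. None of the 28 was called for the sgRNA effect averaged over treatments, by edgeR with or without the block or by DESeq2, and the same held within control cells and within stimulated cells. Over all genes 0% were called without the block and 0.266% with it, or 0.0304% in control cells and 0.122% in stimulated cells with the block. An unadjusted p under 0.05 was reached by 2 members, *Pmvk* and *Insig1*, against 3.32% of all genes, and by 4 with the block (adding *Cyp51* and *Insig2*), against 11.5%. *Pmvk* had an estimate of 0.41 (SE 0.15, unadjusted p = 0.0156, adjusted p = 1), with the sgRNA library above in 6 of 8 pairs. *Insig1* had 0.21 (SE 0.09, unadjusted p = 0.0242, adjusted p = 1) and lay above its empty vector partner in all 8 pairs, as did *Sqle* and *Cyp51*, against 1.01% of all genes. With the block the adjusted p was 0.112 for *Pmvk* and 0.144 for *Insig1*. Among the cell type markers, the sgRNA effect with the block was called for *Cidea* (1.05, SE 0.21, adjusted p = 0.0348) and *Ly6a* (-0.74, SE 0.11, adjusted p = 0.00491). Neither was called without the block, and the part of these markers in the member estimates was not tested. The median of the members was 0.04, beside -0.01 for all genes, and estimates lay between -0.19 for *Soat1* and 0.41 for *Pmvk*. The ribosomal RNA gene took 29 ± 12.8 and 36.8 ± 12.8% of counts in the empty vector groups and 19.1 ± 1.11 and 21.1 ± 7.18% in the sgRNA groups (SD, n = 4, control and stimulated), and with this share as a covariate 0 members were called. The covariate moved the median of the members to 0.12, with all genes still at -0.01, and the estimates of *Cyp51* from 0.13 to 0.48, *Npc1* from -0.04 to 0.38 and *Hmgcs1* from 0.02 to 0.29, with a range from -0.37 for *Soat1* to 0.48.

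Replicate number took the largest share of the variance in 9 of the 28 members, isoproterenol in 9 and the remainder in 10. Of the variance of log2 CPM over the 16 libraries, the median member had 29.8% on replicate number, 12.6% on isoproterenol and 2.47% on the guides, beside 46.8, 6.79 and 2.38% for all genes. *Hmgcs1* had 85.2% on replicate number, *Npc1* 83.8% and *Idi1* 83%. At the other end *Insig1* had 87.7% on isoproterenol, *Acat2* 77.3% and *Mvd* 72.7%. The largest share on the guides was 21.6%, for *Pmvk*. Averaged over the 4 groups, *Cyp51* stood at 304, 259, 468 and 383 CPM in replicates 3, 4, 5 and 6, a 1.81-fold range, and *Hmgcs1* at 336, 280, 433 and 318 CPM. *Npc1* stood at 17.5, 20.4, 33.5 and 32.3 CPM and *Soat1* at 14, 14.9, 8.65 and 18.2 CPM. Replicate 5 was thus the highest for *Cyp51*, *Hmgcs1* and *Npc1* and the lowest for *Soat1*.

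**Figure D4:**
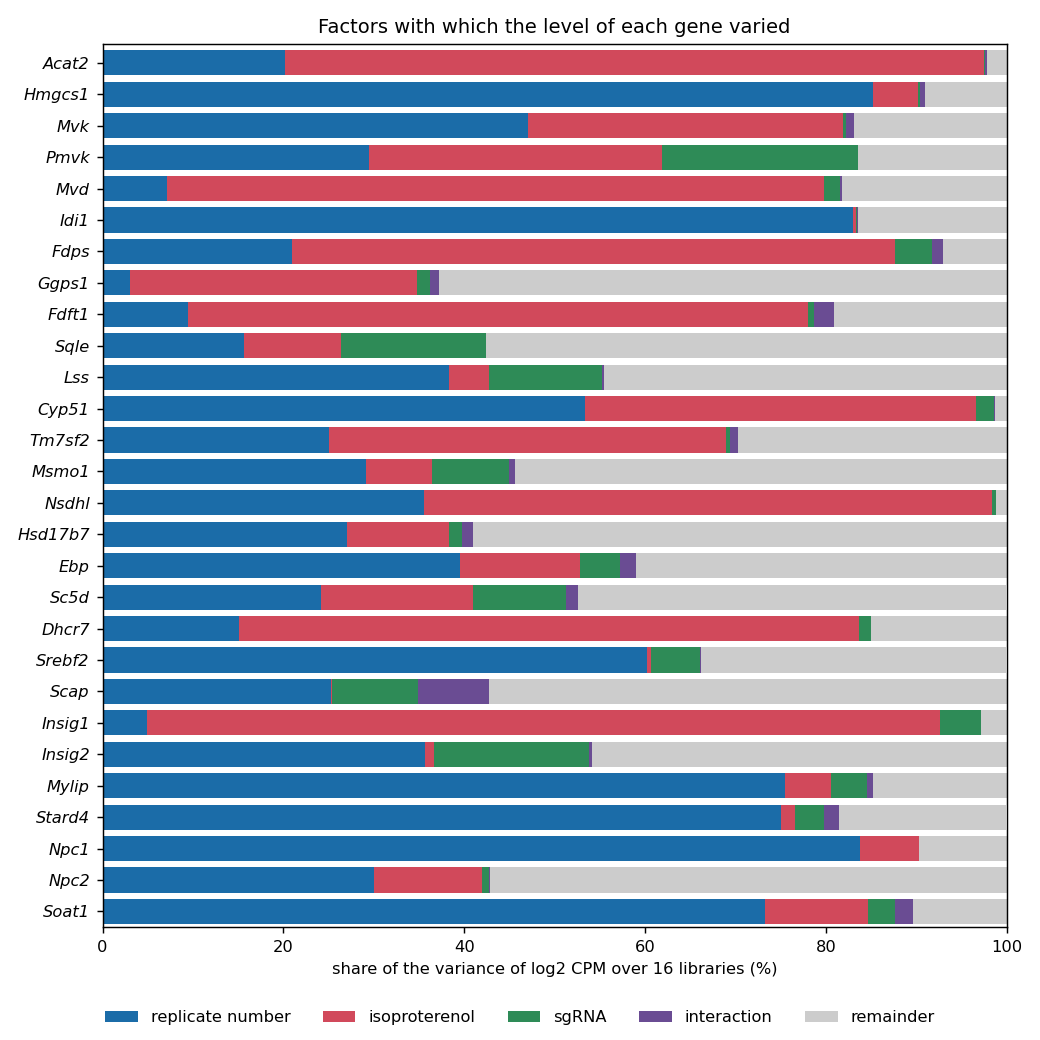
Percent of the variance of log2 CPM over 16 libraries that went with replicate number, isoproterenol, the guides, their interaction and the remainder, for each of the 28 genes. *Insig1* has 87.7% on isoproterenol and *Hmgcs1* 85.2% on replicate number.

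Other genes of sterol metabolism were read from 3 further lists. For isoproterenol none of 13 tested branch and pathway enzymes was called in either fit, against 2.65% of all genes, or 5.7% with the block. *Acss2*, which makes acetyl-CoA from acetate, had an isoproterenol estimate of -0.42 (adjusted p = 0.035), and *Nus1*, a subunit of the enzyme that makes dolichol chains, 0.43 (adjusted p = 0.0151), both within the bound. Of 10 tested sensing genes 0 were called in either fit, against the same 2.65% and 5.7% of all genes. *Srebf1*, which encodes the SREBP of fatty acid synthesis, had an estimate of -0.46 (adjusted p = 0.0554). With the block its adjusted p was 0.00054, within the bound.

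Uptake and storage genes showed calls in both directions. Of 14 tested, *Scarb1* fell and *Lipa* rose, against 1.32% of all genes called lower and 1.33% called higher. With the block 1 was lower and 3 were higher, against 2.61% and 3.09%. *Scarb1*, the HDL receptor, was at 173 to 237 CPM in controls and 120 to 168 CPM after isoproterenol, with no overlap and an effect of -0.59 (SE 0.08, adjusted p = 0.000571). *Lipa*, the lysosomal acid lipase that frees cholesterol from its esters, went from 100 to 122 CPM in controls to 164 to 226 CPM, by 0.74 (SE 0.08, adjusted p = 2.86e-05). With the block *Lrp1*, a lipoprotein receptor, was also higher (0.60, SE 0.11, adjusted p = 0.0012; without it 0.70, adjusted p = 0.237), as was *Nceh1*, a hydrolase of cholesterol esters (0.65, SE 0.17, adjusted p = 0.0137; without it 0.63, adjusted p = 0.103). The list medians were -0.10, -0.06 and -0.10 for enzymes, sensing and uptake, beside 0.00 for all genes. For the averaged sgRNA effect 0 genes of the 3 lists were called in either fit, against 0% of all genes, or 0.266% with the block.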

How the data were processed

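Polyadenylated RNA of 16 libraries was sequenced in paired ends. Reads were trimmed by the authors with cutadapt and assigned by salmon to mouse GENCODE M22 transcripts (GRCm38). The deposited values are estimated counts per gene that the authors made in this way, in whole numbers and with no normalization; tool versions and strand use are not given in the sources used here. Whether RNAcentral transcripts were included in this table was not stated, and counts of overlapping genes and near-identical copies are uncertain. Groups were taken from the sample titles.

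Counts were tested in R 4.3.3 with edgeR 4.0.16 (TMM, filterByExpr with a minimum count of 10 and total of 15, quasi-likelihood test, two-sided, 4 group means over all 16 libraries, Benjamini-Hochberg over 13150 genes). Intervals are 95% on 12 residual degrees of freedom. CPM used TMM-scaled library sizes, and variance shares log2 CPM with a prior count of 2. Totals of 9053521 to 16546187 counts limit genes of low count most. Samples of the same replicate number deviated together from their group means (correlations 0.22 to 0.61 over 24 pairs, different numbers -0.51 to 0.52, median -0.21), and 15 of 16 libraries correlated best with their own number, so the numbers were taken to pair the samples. The pairing comes from the data, since the labels give only the numbers. The alternatives were the replicate block, DESeq2 1.42.0, RLE scaling, no low-count filter, no fold bound, only the groups of the contrast, the ribosomal RNA share as covariate or its gene left out, and leaving out each library or number; summing *Acat2* with *Acat3* was added after the data were seen.

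The named genes are all 28 members, those of the 3 further lists called in either fit for an averaged effect, and *Gm15551*, *Ucp1* and the ribosomal RNA gene; *Acss2*, *Nus1* and *Srebf1* were added after their values were seen, as were the genes named for shared sequence. Some genes of the further lists are not reported here. Members, lists and markers were chosen with earlier results of these data known. Exon lengths and overlaps came from a GENCODE annotation of GRCm38 that may differ slightly from the one used for counting. The script was tested on simulated data with no replicate effect, read at an adjusted p under 0.05 with no fold bound. Log2 changes of 0.6 were recovered in 49.5% of genes by edgeR, 46.5% with the block and 61.6% by DESeq2. False genes made up 3.88, 4.65 and 14.3% of those that passed, in the same order.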

Additional observations from a re-analysis of the deposited data

Results flagged for a closer look

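In 7 of 112 sets of 4 libraries (28 genes in 4 groups), 1 library stood apart by Dixon's test at the 95% level; chance alone flags about 1 in 20 such sets, or 5.6 here. Among the genes that fell, *Dhcr7* did so in 2 sets. In empty vector stimulated cells replicate 5 was at 47.3 CPM and the others at 25.9 to 28.7, and in sgRNA controls replicate 6 was at 42.9 CPM and the others at 49.6 to 50.9. Both lay toward the other treatment. *Tm7sf2* was at 10.3 CPM in replicate 5 of the empty vector controls, the others at 5.91 to 6.44. *Stard4* was at 71.3 CPM in replicate 6 of the same group, the others at 42.1 to 44.6. In empty vector stimulated cells *Ggps1* was at 22.2 CPM in replicate 3, the others at 16.3 to 17.3, and *Hsd17b7* was at 39.7 CPM in replicate 4, the others at 48.5 to 49.6. *Sc5d* was at 35.7 CPM in replicate 4 of the sgRNA controls, the others at 31.7 to 32.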

How the results depend on the processing

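The averaged isoproterenol count of 5 members became 6 with the replicate block, 6 with DESeq2, 5 with RLE scaling, 7 with no filter on low counts, 7 with no fold bound, 6 with the ribosomal RNA share as covariate and 5 without its gene. It was 5 to 7 with any 1 library left out and 2 to 7 with a replicate number left out, 2 without replicate 3 (*Insig1* and *Acat2*) and 3 without replicate 4; with the block these were 6 to 8. In empty vector cells the count of 2 became 6 with the block, 4 with DESeq2, 4 with no filter and 1 with only the groups of the contrast; left-out libraries gave 1 to 4, replicate numbers 0 to 4, and 5 to 7 with the block (the 7 without replicate 5 held *Soat1*, higher). In sgRNA cells the count of 3 became 7 with the block, 5 with DESeq2, 6 with no filter and 5 with the ribosomal RNA covariate; left-out libraries gave 1 to 4, numbers 1 to 3, and 7 to 9 with the block. Leaving out 1 library gave a count of 1 without replicate 3, 4 or 6 of the empty vector stimulated cells or replicate 3 of the empty vector controls in the empty vector comparison, and 4 without stimulated replicate 5; in the sgRNA comparison it gave 1 without replicate 4 or 6 of the empty vector stimulated cells, 3, 5 or 6 of the sgRNA controls, or 3, 4 or 6 of the sgRNA stimulated cells. The calls over all genes moved too. For the averaged effect 349 of 13150 genes became 749 with the block, 465 with DESeq2, 351 with RLE scaling, 436 of 34821 with no filter, 590 with no fold bound, 485 with the covariate, 120 of 13336 without replicate 3 and 170 of 13253 without replicate 4. In empty vector cells 109 became 588 with the block, 221 with DESeq2, 154 of 34821 with no filter, 44 of 12241 with only the groups of the contrast and 35 of 13253 without replicate 4. In sgRNA cells 92 became 513, 177 and 125 of 34821 under the first 3 of these, 125 of 13150 with the covariate, and 29 to 69 without a replicate number. The cause was not tested. The sgRNA effects and the interaction had 0 members called in every alternative run. No called value changed sign. Precision is limited by 4 libraries per group and, for *Tm7sf2*, *Mylip* and *Soat1*, by levels near 10 CPM.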
